A study of Mus musculus with 48 samples.

Results

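The enzymes that build triglyceride from glycerol were followed in mouse liver through 9 genes: *Gpam*, *Agpat9*, *Agpat2*, *Lpin1*, *Lpin2*, *Lpin3*, *Mogat1*, *Dgat1* and *Dgat2*. They were chosen by name, with earlier results of these data known, as the array probes annotated to those symbols. They make up 9 of the 20487 genes that had at least 1 probe above the detection filter. Shares of all genes called are given beside counts of members as a description, and the set was not tested. Liver RNA was hybridized on 48 one-colour arrays, 6 for each of 8 groups. The groups crossed genotype, diet and nutritional state. All mice were males carrying floxed alleles of *Pik3ca*, the gene of the PI3K catalytic subunit p110α. The p110αhep-/- mice also carried an albumin-Cre transgene, which deletes p110α in hepatocytes, whereas their p110αhep+/+ littermates lacked Cre. From 12 weeks of age the mice received either a high fat diet (HFD) with 60% of its calories from fat or a control (CTRL) diet for 12 weeks. They were killed at ZT16, in the dark phase, either fed or after 24 h without food. The groups are therefore p110αhep+/+ and p110αhep-/- mice on CTRL diet or HFD, each fed or fasted.

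Triglyceride synthesis begins when a glycerol-3-phosphate acyltransferase adds a fatty acid to glycerol-3-phosphate. *Gpam* encodes the mitochondrial enzyme for this step, and *Agpat9*, now called *Gpat3*, encodes an enzyme of the endoplasmic reticulum. *Agpat2* encodes the acyltransferase that converts the product into phosphatidic acid, and the lipins (*Lpin1*, *Lpin2*, *Lpin3*) are phosphatases that turn phosphatidic acid into diacylglycerol. *Lpin1* protein also acts with transcription factors of fatty acid oxidation. *Mogat1* encodes a monoacylglycerol acyltransferase, which reaches diacylglycerol by another route. *Dgat1* and *Dgat2* encode the enzymes of the last step, from diacylglycerol to triglyceride. In the liver, insulin and the factor SREBP-1c are known to raise *Gpam*, fasting is known to raise *Lpin1*, and *Mogat1* is known as a gene of fatty liver that responds to PPARγ.

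On each array, 50.13% to 57.44% of probes were well above background. Arrays of the same group correlated with each other between 0.9888 and 0.9974. The arrays were washed in 2 batches, and each batch held 3 arrays of every group. The probe of the targeted gene *Pik3ca* read 12.58 to 13.45 (log2 signal) over the 24 p110αhep+/+ arrays and 13.02 to 13.71 over the 24 p110αhep-/- arrays. It was higher in p110αhep-/- livers of fed mice by 0.39 ± 0.08 (log2, SE) on CTRL diet and by 0.58 ± 0.08 on HFD, and of fasted mice by 0.08 ± 0.08 and 0.25 ± 0.08, all under 1.5-fold. Its place relative to the deleted exons was not determined here, so it is no check of the deletion, and genotypes are as labelled. The hepatocyte markers *Alb*, *Ttr*, *Apoa1*, *Cps1*, *Cyp2e1* and *Hnf4a* were well above background on all 48 arrays. The array of p110αhep-/- mice on HFD, fed, replicate 3 had the lowest weight in the fit (0.35). Without it, the called effects that use its group kept their direction and call: *Lpin1* went to 2.54, -1.62 and -1.3 in the fasting, HFD and genotype comparisons, *Agpat9* to 2.79 (HFD), *Gpam* to -1.57 (genotype), *Lpin2* to 1.38 (fasting), *Agpat2* to -0.65 (fasting) and *Mogat1* to 1.73 (HFD) and -2.47 (genotype).

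Promoters of the members were examined for 4 short motifs that factors of lipid metabolism are known to bind: CACGTG (E-box), TCACNCCAC (sterol regulatory element), CCAAT (NF-Y) and TGTTTAC (FOXO), on both strands of the 250 bases before each start site. The RefSeq promoter table (GRCm38.p6) held 11 start sites for 7 of the 9 members. The sequences below are shown because *Lpin2* and *Gpam* are the members with a match and *Mogat1* is the member that passed both thresholds used below in every genotype comparison. Capitals mark the motif matches.
Lpin2, start site 1, chr17:71183282-71183531, plus strand: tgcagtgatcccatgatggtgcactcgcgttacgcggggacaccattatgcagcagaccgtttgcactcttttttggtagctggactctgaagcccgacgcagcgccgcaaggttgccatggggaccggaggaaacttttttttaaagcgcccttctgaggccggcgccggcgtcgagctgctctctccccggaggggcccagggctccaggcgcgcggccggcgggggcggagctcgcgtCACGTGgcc
Lpin2, start site 3, chr17:71204404-71204653, plus strand: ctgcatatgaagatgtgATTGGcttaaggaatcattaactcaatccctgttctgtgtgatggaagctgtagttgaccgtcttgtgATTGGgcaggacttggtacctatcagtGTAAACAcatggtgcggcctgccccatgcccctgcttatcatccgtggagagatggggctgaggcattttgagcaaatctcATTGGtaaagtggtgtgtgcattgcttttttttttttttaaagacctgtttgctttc
Mogat1, chr1:78510810-78511059, plus strand: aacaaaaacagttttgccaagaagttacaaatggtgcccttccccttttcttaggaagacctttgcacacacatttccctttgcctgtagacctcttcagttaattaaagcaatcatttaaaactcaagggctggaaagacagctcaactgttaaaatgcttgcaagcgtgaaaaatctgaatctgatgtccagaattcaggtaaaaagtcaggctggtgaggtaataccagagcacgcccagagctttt
Gpam, 30 bases, chr19:55127295-55127324, minus strand: ctgaagctttcgATTGGctgatcaagctca

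The E-box of *Lpin2* lies 9 to 4 bases before its start site. The third start site of *Lpin2* held 3 NF-Y boxes and, 138 to 132 bases before the start, 1 FOXO match, all 4 on the opposite strand. *Gpam* held 1 NF-Y box, 74 to 70 bases before its upstream start site and also on the opposite strand. RefSeq's *Gpam* gene, on the minus strand, begins at base 55127319 of chromosome 19, upstream of that box, so the box lies within the annotated gene. No match to these letters was found in the windows of *Agpat9*, *Agpat2*, *Lpin1*, *Lpin3* and *Mogat1*. Among all 32851 promoters of the table, 6.02% held the E-box, 1.05% the sterol regulatory element, 33.8% an NF-Y box and 3.17% the FOXO motif. The matches are descriptions of letters and do not show binding.

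Each gene was read from its brightest probe, whose normalized log2 median signal is given below as its log2 signal, and levels are compared within a gene only. Each comparison set 6 arrays against 6 in limma. To be called, a gene needed a Benjamini–Hochberg adjusted p, taken over all probes, no higher than 0.05 together with a change of more than 1.5-fold. Fold changes come from a fit that weights the arrays, so they differ slightly from the difference between group means. The 6 arrays of a group are separate samples by their labels, and the tests measure the spread between them. All 9 used probes were well above background on all 48 arrays.

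After fasting, *Lpin2* and *Agpat9* rose and *Gpam* fell in p110αhep+/+ mice on CTRL diet, 3 members called where 5.46% of all genes were. On HFD, *Gpam* was the only member called in p110αhep+/+ mice, where the background was 4.72%. In p110αhep-/- mice on CTRL diet *Agpat9*, *Lpin2* and *Mogat1* rose with fasting (background 7.08%). On HFD, *Lpin1* and *Lpin2* rose and *Agpat2* fell (background 5.9%). The median log2 fold change of the 9 members was -0.04, 0.07, 0.26 and 0.15 in these comparisons, beside -0.001 to 0.004 over all genes.

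HFD raised *Gpam*, *Agpat9*, *Lpin2* and *Mogat1* in fed p110αhep+/+ mice, 4 members against a background of 3.71% of genes. In fasted p110αhep+/+ mice *Mogat1* was the member called (background 2.82%). In fed p110αhep-/- mice HFD raised *Agpat9* and *Mogat1* and lowered *Lpin1* (background 2.34%). None of the 9 was called in fasted p110αhep-/- mice by limma, where 1.89% of genes were. Of the 2 members with an unadjusted p under 0.05 there, *Dgat2* (0.3 ± 0.07) passed the adjusted p (0.00593) under the fold threshold. The share of all genes with an unadjusted p under 0.05 is not given here. The members' median log2 fold changes were 0.14, 0.22, -0.06 and 0 in these comparisons, beside -0.019 to 0 over all genes.

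Loss of hepatocyte p110α went with lower *Mogat1*, *Agpat9* and *Gpam* in fed mice on CTRL diet (3 members, background 3.73%). In fasted mice on CTRL diet *Mogat1* and *Agpat9* were lower (background 3.23%). In fed mice on HFD *Mogat1*, *Gpam* and *Lpin1* were lower (background 6.23%), and in fasted mice on HFD *Mogat1* was lower (background 6.56%). No member was called higher in p110αhep-/- livers in any of the 4 comparisons. The members' medians were -0.25, 0.01, -0.44 and -0.37, beside 0.007 to 0.033 over all genes. The 12 comparisons reuse the same 8 groups, so their values are given side by side.

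**Figure D1:**
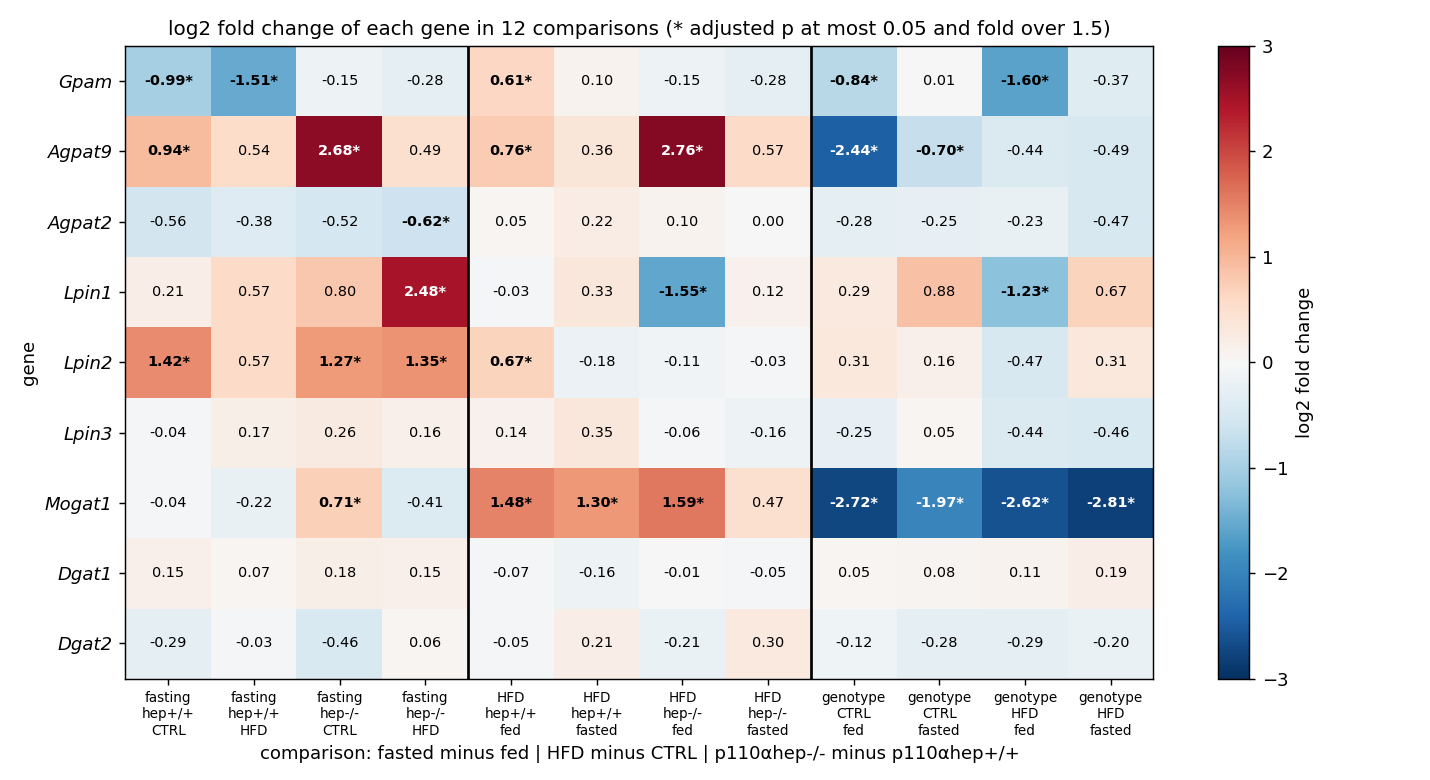
Log2 fold changes of the 9 genes (rows) in 4 fasting, 4 HFD and 4 genotype comparisons (columns), each 6 arrays against 6, with an asterisk on called effects (adjusted p up to 0.05, more than 1.5-fold). *Mogat1* is lower in p110αhep-/- livers in all 4 genotype columns (-2.81 to -1.97), *Agpat9* has its deepest value in the CTRL fed genotype column (-2.44), and no value of *Dgat1* or *Dgat2* carries an asterisk.

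*Mogat1* was the member with the widest difference between the genotypes. In fed mice on CTRL diet its log2 signal ran from 8.02 to 9.91 (median 9.64) in p110αhep+/+ livers and from 6.44 to 7.04 (median 6.8) in p110αhep-/- livers. In fasted mice on CTRL diet the ranges were 9.04 to 10.05 (median 9.4) and 6.91 to 8.29 (median 7.53). In both states every p110αhep-/- array lay below every p110αhep+/+ array. On HFD, fed p110αhep+/+ arrays read 10.6 to 11.28 (median 10.96) and fed p110αhep-/- arrays 6.36 to 9.72 (median 8.3). After fasting on HFD the values were 10.28 to 11.32 (median 10.7) and 7.51 to 8.29 (median 8.09). Again the genotypes did not overlap in either state.

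The genotype effect on *Mogat1* was -2.72 ± 0.26 (log2, SE) in fed mice on CTRL diet (6.6-fold lower, adjusted p = 2.64e-10). In fasted mice on CTRL diet it was -1.97 ± 0.25 (adjusted p = 1.27e-07). On HFD it reached -2.62 ± 0.26 in fed mice (adjusted p = 1.87e-10) and -2.81 ± 0.27 in fasted mice (7.01-fold lower, adjusted p = 9.78e-11). Within the wash batches the 4 effects lay between -3.1 and -1.72, so that each batch alone gave the same direction. Neither interaction of genotype with diet was called for *Mogat1*: the difference was 0.11 in fed mice (95% interval -0.65 to 0.86, adjusted p = 0.922) and -0.83 in fasted mice (-1.59 to -0.08, adjusted p = 0.189).

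HFD raised *Mogat1* by 1.48 ± 0.25 in fed p110αhep+/+ mice (2.79-fold, adjusted p = 2.39e-05) and by 1.3 ± 0.25 in fasted ones (adjusted p = 0.000372), and in both states the CTRL and HFD arrays did not overlap. In fed p110αhep-/- mice the increase was 1.59 ± 0.28 (3-fold, adjusted p = 7.04e-05). The HFD group spanned 6.36 to 9.72 and overlapped the CTRL group through its lowest array. Without that array, replicate 3, the increase was 1.73. It was 2.04 within wash batch 1 and 0.98 within wash batch 2. In fasted p110αhep-/- mice the difference was 0.47 ± 0.27 and did not pass (adjusted p = 0.311). The difference between the fed and fasted effects, -1.12 ± 0.39, was not called (adjusted p = 0.0693), and it was called without replicate 3 (-1.25, adjusted p = 0.0225) and with the processed signal (-1.39, adjusted p = 0.0443). It was -1.88 within wash batch 1 and -0.11 within wash batch 2. Fasting raised *Mogat1* in p110αhep-/- mice on CTRL diet by 0.71 ± 0.26 (adjusted p = 0.0315), with overlapping groups. A second, dimmer *Mogat1* probe, well above background on 0 of 6 arrays of the fed p110αhep-/- group on CTRL diet, did not call that fasting effect (0.18, adjusted p = 0.522) or the HFD effect in fed p110αhep-/- mice (0.58 ± 0.21, adjusted p = 0.0677). Each genotype comparison was called on this probe, at smaller values than above. They were -1.48 fed and -0.98 fasted on CTRL diet, and -1.88 fed and -1.8 fasted on HFD.

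**Figure D2:**
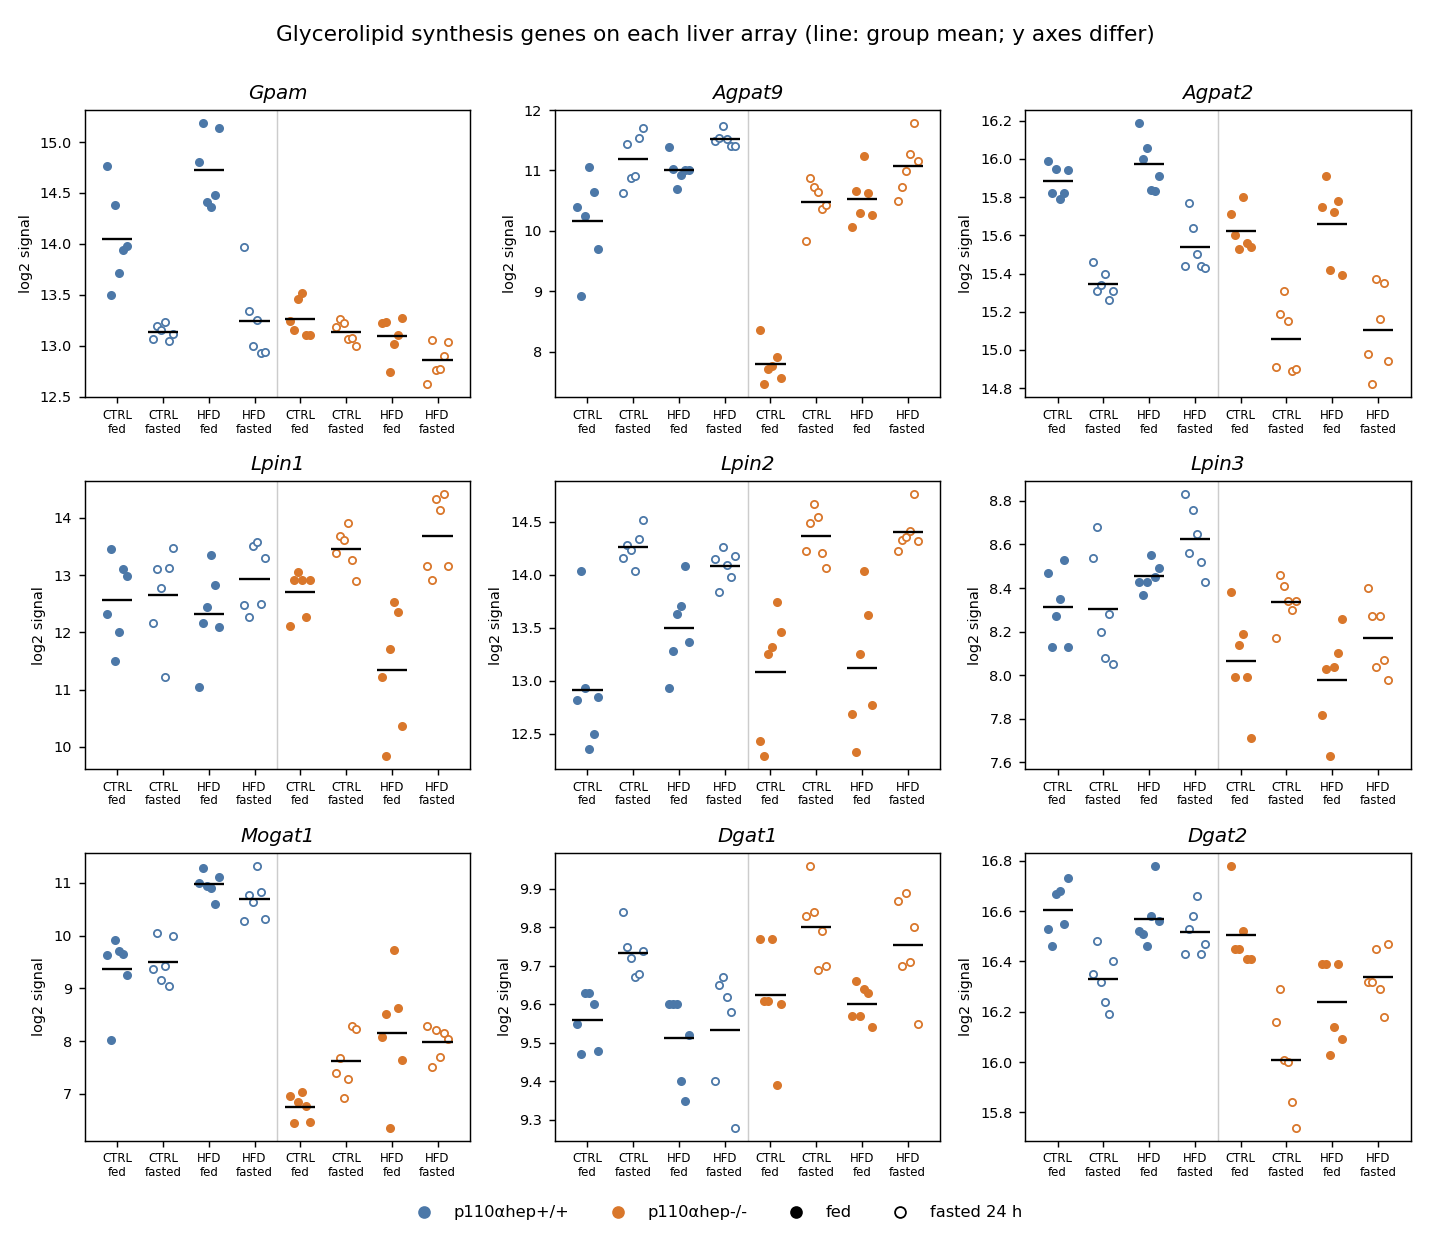
Log2 signal of each gene (y axis, a separate scale per panel) on all 48 arrays by group (x axis), blue for p110αhep+/+ and orange for p110αhep-/-, filled for fed and open for fasted mice, with lines at group means of 6 arrays. *Agpat9* in fed p110αhep-/- mice on CTRL diet (7.46 to 8.36) lies below every other group, and *Mogat1* separates the genotypes in each condition.

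Among the enzymes of the initial acylation, *Agpat9* had 1 group apart from the other 7. In fed p110αhep-/- mice on CTRL diet it read 7.46 to 8.36 (median 7.74), against 8.93 to 11.06 (median 10.32) in fed p110αhep+/+ mice. After fasting on CTRL diet the p110αhep-/- arrays read 9.83 to 10.87 (median 10.53) and the p110αhep+/+ arrays 10.62 to 11.71 (median 11.17). On HFD in fed mice the p110αhep-/- arrays read 10.07 to 11.24 (median 10.45) and the p110αhep+/+ arrays 10.69 to 11.38 (median 11). Every group other than fed p110αhep-/- on CTRL diet thus overlapped its neighbours in the order of means, whereas the gap of 2.36 from that group to the next was free of overlap. In fasted mice on HFD the values were 10.5 to 11.79 (median 11.08) in p110αhep-/- and 11.4 to 11.74 (median 11.5) in p110αhep+/+ livers.

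The genotype effect on *Agpat9* was -2.44 ± 0.22 in fed mice on CTRL diet (5.42-fold lower, adjusted p = 2.06e-11) and -0.7 ± 0.21 in fasted ones (adjusted p = 0.0113). On HFD it was -0.44 ± 0.22 fed (adjusted p = 0.122) and -0.49 ± 0.22 fasted (adjusted p = 0.0849). Fasting raised *Agpat9* 6.4-fold in p110αhep-/- mice on CTRL diet (2.68 ± 0.21, adjusted p = 2.15e-13) and 1.92-fold in p110αhep+/+ mice (0.94 ± 0.21, adjusted p = 0.000517). The p110αhep+/+ increase was 0.33 within wash batch 1 and 1.44 within wash batch 2. HFD raised it 6.77-fold in fed p110αhep-/- mice (2.76 ± 0.23, adjusted p = 3.18e-11) and 1.69-fold in fed p110αhep+/+ mice (0.76 ± 0.21, adjusted p = 0.00599). On HFD, fasting moved it by 0.54 ± 0.2 in p110αhep+/+ mice (adjusted p = 0.0419, under the fold threshold) and by 0.49 ± 0.23 in p110αhep-/- mice (adjusted p = 0.121).

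The differences between these effects were tested directly for *Agpat9*. The HFD effect in fed mice was larger in p110αhep-/- than in p110αhep+/+ mice by 2.0 ± 0.31 (adjusted p = 8.52e-05). The fasting effect on CTRL diet was larger by 1.74 ± 0.3 (adjusted p = 0.000514). In p110αhep-/- mice the fasting effect was smaller on HFD than on CTRL diet by 2.19 on the log2 scale, a term of -2.19 ± 0.32 (adjusted p = 5.47e-06). These 3 terms share the group of fed p110αhep-/- mice on CTRL diet, so they are not independent of each other. A second, dimmer *Agpat9* probe, well above background on 46 of 48 arrays, was also called in that genotype comparison, at -1.53 (adjusted p = 3.88e-09). In p110αhep-/- mice this probe was called at smaller values for fasting on CTRL diet (1.53) and for HFD in fed mice (1.66). On it the 3 terms were 1.06, 0.9 and -1.2, also called.

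*Gpam*, the mitochondrial acyltransferase, was high in fed p110αhep+/+ mice and low elsewhere. On CTRL diet it read 13.5 to 14.76 (median 13.96) in fed and 13.05 to 13.23 (median 13.13) in fasted p110αhep+/+ mice. On HFD it read 14.36 to 15.19 (median 14.64) fed and 12.93 to 13.97 (median 13.12) fasted. Fed and fasted arrays did not overlap on either diet. In p110αhep-/- livers the 24 arrays stayed within 12.62 to 13.52 in all 4 groups, with medians of 13.2 and 13.13 on CTRL diet and 13.16 and 12.84 on HFD, fed and fasted respectively.

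Fasting lowered *Gpam* in p110αhep+/+ mice by 0.99 on the log2 scale on CTRL diet (-0.99 ± 0.15, adjusted p = 1.14e-06) and by 1.51 on HFD (-1.51 ± 0.14, 2.85-fold, adjusted p = 5.01e-11). The first was -0.62 within wash batch 1 and -1.28 within wash batch 2. The difference between these effects, -0.51 ± 0.21, was not called (adjusted p = 0.198). In p110αhep-/- mice the differences were -0.15 ± 0.15 (adjusted p = 0.496) and -0.28 ± 0.17 (adjusted p = 0.222). The fasting effect differed between the genotypes by 0.85 ± 0.21 on CTRL diet (adjusted p = 0.0161) and by 1.23 ± 0.22 on HFD (adjusted p = 0.000545). The first of these terms was 0.44 within wash batch 1 and 1.1 within wash batch 2, and 0.78 (adjusted p = 0.0545) without array weights.

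Fed p110αhep-/- livers had less *Gpam* than fed p110αhep+/+ livers on CTRL diet (-0.84 ± 0.15, adjusted p = 7.79e-05, with ranges that met between 13.5 and 13.52) and on HFD (-1.6 ± 0.15, 3.03-fold, adjusted p = 4.8e-11, with no overlap). On CTRL diet the effect was -0.42 within wash batch 1 and -1.08 within wash batch 2. In fasted mice the genotype difference was 0.01 ± 0.15 on CTRL diet and -0.37 ± 0.16 on HFD (adjusted p = 0.968 and 0.0631). HFD raised *Gpam* in fed p110αhep+/+ mice by 0.61 ± 0.15 (1.53-fold, adjusted p = 0.00181), close to the fold threshold, and this increase was 0.98 in wash batch 1 and 0.28 in wash batch 2. It lost its call under 6 of 14 alternatives (0.51 to 0.61). In fed p110αhep-/- mice it was -0.15 ± 0.16. The genotype by diet term in fed mice was -0.76 ± 0.22 (adjusted p = 0.0446), and it was -1.23 within wash batch 1 and -0.42 within wash batch 2. It lost its call under 7 of 14 alternatives.

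*Agpat2*, which makes phosphatidic acid, was lower after fasting in each of the 4 comparisons, by 1.3-fold to 1.54-fold. The fed and fasted ranges did not overlap in any of them. On CTRL diet it read 15.79 to 15.99 (median 15.88) fed and 15.26 to 15.46 (median 15.32) fasted in p110αhep+/+ mice. The fall in p110αhep-/- mice on HFD passed both thresholds (-0.62 ± 0.09, adjusted p = 2.58e-06), from 15.39 to 15.91 (median 15.74) fed to 14.82 to 15.37 (median 15.07) fasted. The other 3 differences, -0.56, -0.38 and -0.52, had adjusted p values of 1.39e-06, 0.000306 and 4.56e-06 and did not reach 1.5-fold. The call in p110αhep-/- mice on HFD was lost with the processed signal, with median scaling and without array weights (-0.57 to -0.55). A second *Agpat2* probe called it (-0.72) and also called the fall in p110αhep+/+ mice on CTRL diet (-0.61, adjusted p = 1.28e-07). No interaction of fasting with genotype or diet was called for *Agpat2*, with differences of 0.03 on CTRL diet (95% interval -0.21 to 0.28) and -0.24 on HFD (-0.49 to 0.01) between the genotypes. Between the genotypes it was 0.47 lower on the log2 scale in fasted p110αhep-/- mice on HFD (-0.47 ± 0.09, adjusted p = 5.71e-05), with no overlap and under the fold threshold. The other genotype differences were -0.28 fed and -0.25 fasted on CTRL diet and -0.23 fed on HFD. They passed the adjusted p (0.0153, 0.0234 and 0.0345) under the fold threshold, with overlap.

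Of the phosphatases, *Lpin2* rose with fasting. In p110αhep+/+ mice on CTRL diet it went from 12.36 to 14.04 (median 12.83) fed to 14.04 to 14.52 (median 14.26) fasted, an increase of 1.42 ± 0.21 (2.68-fold, adjusted p = 7.44e-07). In p110αhep-/- mice on CTRL diet it went from 12.29 to 13.74 (median 13.29) to 14.06 to 14.67 (median 14.36), an increase of 1.27 ± 0.21 (adjusted p = 6.12e-06). On HFD in p110αhep-/- mice it went from 12.33 to 14.04 (median 13.01) to 14.22 to 14.76 (median 14.34), an increase of 1.35 ± 0.23 (adjusted p = 1.92e-05). Fed and fasted arrays did not overlap in these 3 comparisons, although in the first of them the highest fed and the lowest fasted array both rounded to 14.04. The fourth, p110αhep+/+ mice on HFD, overlapped: 12.93 to 14.08 (median 13.5) fed against 13.84 to 14.26 (median 14.12) fasted, a difference of 0.57 ± 0.2 (1.48-fold, adjusted p = 0.031). This difference was above 1.5-fold with the processed signal, with normexp and with median scaling (0.59 to 0.65). The other 5 *Lpin2* probes disagreed on it, with 0.6 and 0.59 on those called and -0.01, -0.04 and 0.22 on those not called. In the 3 called fasting comparisons, 1 of these probes, a dim one, was not called (0.2, 0.23 and 0.35), and the rest were. No interaction of fasting with genotype or diet was called for *Lpin2*, and on HFD its fasting effect was 0.79 larger in p110αhep-/- mice (95% interval 0.17 to 1.41, adjusted p = 0.158). The HFD increase in fed p110αhep+/+ mice was 0.67 ± 0.2 (adjusted p = 0.0143) and was called on 2 of the 5 other *Lpin2* probes. This call was lost without the filter on dim probes (0.62, adjusted p = 0.0561) and without array weights (0.59, adjusted p = 0.0743). With the median over probes it was lost on the fold threshold (0.56). *Lpin2* did not differ past the thresholds between the genotypes in any condition on the probe used (-0.47 to 0.31). The lowest of these, in fed mice on HFD, was 0.18 within wash batch 1 and -1.02 within wash batch 2, and 1 of the 5 other probes was called there (-0.66 ± 0.23, adjusted p = 0.0221).

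*Lpin1* varied widely within groups, with SDs of 0.36 to 1.08. Its lowest group was fed p110αhep-/- mice on HFD, at 9.84 to 12.53 (median 11.47). The fasted mice of that genotype and diet, which are other animals, read 12.91 to 14.41 (median 13.64), an increase of 2.48 ± 0.44 (5.56-fold, adjusted p = 2.87e-05) with no overlap. This increase was 1.62 within wash batch 1 and 3.32 within wash batch 2, and it was called on the 3 other *Lpin1* probes at 2.48, 1.57 and 1.16. In p110αhep-/- mice on CTRL diet the fed arrays read 12.11 to 13.06 (median 12.91) and the fasted arrays 12.89 to 13.91 (median 13.5), a difference of 0.8 ± 0.4 (adjusted p = 0.119) that was called when only the groups compared were fitted (adjusted p = 0.0039) and under none of the other 13 alternatives. In p110αhep+/+ mice the fasting difference was 0.21 ± 0.39 on CTRL diet and 0.57 ± 0.38 on HFD (adjusted p = 0.731 and 0.286), in groups that reached from 11.22 to 13.47 and from 11.04 to 13.58. On CTRL diet it turned direction between the wash batches, from -0.69 in wash batch 1 to 1.14 in wash batch 2.

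Fed p110αhep-/- mice had less *Lpin1* on HFD than on CTRL diet (-1.55 ± 0.42, adjusted p = 0.0104) and less than fed p110αhep+/+ mice on HFD (-1.23 ± 0.4, adjusted p = 0.016), whose arrays read 11.04 to 13.35 (median 12.3). The groups overlapped in both comparisons. The first was -0.7 within wash batch 1 and -2.36 within wash batch 2, and the second -0.2 and -2.09. The second also lost its call without array weights (-0.98, adjusted p = 0.0554) and when only the groups compared were fitted (-1.23, adjusted p = 0.0718). Of the 3 other *Lpin1* probes, 2 were called in the first comparison (-1.56 and -0.95) and 1 was not (-0.56, adjusted p = 0.163), and all 3 were called in the second (-1.31 to -0.69). The genotype by fasting term on HFD was 1.91 ± 0.58 and missed the threshold (adjusted p = 0.0554); it was called under 7 of 14 alternatives. Over the 48 arrays *Lpin1* and *Lpin2* had a Pearson correlation of 0.66, and of 0.62 on deviations from the group means, values that share arrays and normalization.

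*Lpin3* was dim and steady, between 7.63 and 8.83 on all arrays. In mice on HFD it was lower in p110αhep-/- livers without overlap, by -0.44 ± 0.1 fed (adjusted p = 0.000333) and -0.46 ± 0.1 fasted (adjusted p = 0.000291), both under 1.5-fold. Fed arrays on HFD read 8.37 to 8.55 (median 8.44) in p110αhep+/+ and 7.63 to 8.26 (median 8.03) in p110αhep-/- mice. In fasted mice its genotype effect was more negative on HFD than on CTRL diet by 0.51 on the log2 scale, a term of -0.51 ± 0.13 (adjusted p = 0.0217) that was also under the fold threshold. In fasted mice on CTRL diet the genotype difference was 0.05 ± 0.09.

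Neither enzyme of the last step was called in any comparison as reported here. *Dgat1* was between 9.28 and 9.96 on all arrays and its 12 differences lay between -0.16 and 0.19. Fasting on CTRL diet passed the adjusted p under the fold threshold in p110αhep+/+ (0.15 ± 0.06, adjusted p = 0.0452, no overlap) and p110αhep-/- mice (0.18 ± 0.06, adjusted p = 0.0166). So did the genotype difference in fasted mice on HFD (0.19 ± 0.06, adjusted p = 0.0192). Of the 12 differences of *Dgat2*, 7 passed the adjusted p without reaching 1.5-fold. Fasting on CTRL diet went with -0.29 ± 0.07 in p110αhep+/+ (adjusted p = 0.00119) and -0.46 ± 0.07 in p110αhep-/- mice (adjusted p = 2.31e-06). In the latter, fed arrays read 16.41 to 16.78 (median 16.45) and fasted arrays 15.74 to 16.29 (median 16.0), with no overlap. On HFD the fasting differences of *Dgat2* were -0.03 ± 0.07 and 0.06 ± 0.08, and the diet by fasting term in p110αhep-/- mice was 0.52 ± 0.11 (adjusted p = 0.00119, 1.43-fold). That term was called without array weights (0.6, adjusted p = 0.000368), and it was 0.32 within wash batch 1 and 0.7 within wash batch 2. Fed p110αhep-/- mice on HFD had lower *Dgat2* than p110αhep+/+ mice by 0.29 on the log2 scale (-0.29 ± 0.07, adjusted p = 0.00179), without overlap: 16.03 to 16.39 (median 16.26) against 16.46 to 16.78 (median 16.54).

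The interaction terms were called for *Agpat9* and *Gpam* only. For genotype by diet in fed mice 2 members were called where 1.4% of genes were, and in fasted mice none by limma where 1.88% were. Of the 2 members with an unadjusted p under 0.05 in fasted mice, *Lpin3* passed the adjusted p (0.0217) under the fold threshold. For genotype by fasting 2 members were called on CTRL diet (background 1.32%) and 1 on HFD (background 1.4%). For diet by fasting, none was called in p110αhep+/+ mice (background 0.888%, 3 members with an unadjusted p under 0.05) and 1, *Agpat9*, in p110αhep-/- mice (background 2.9%). The shares of all genes with an unadjusted p under 0.05 are not given here.

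**Figure D3:**
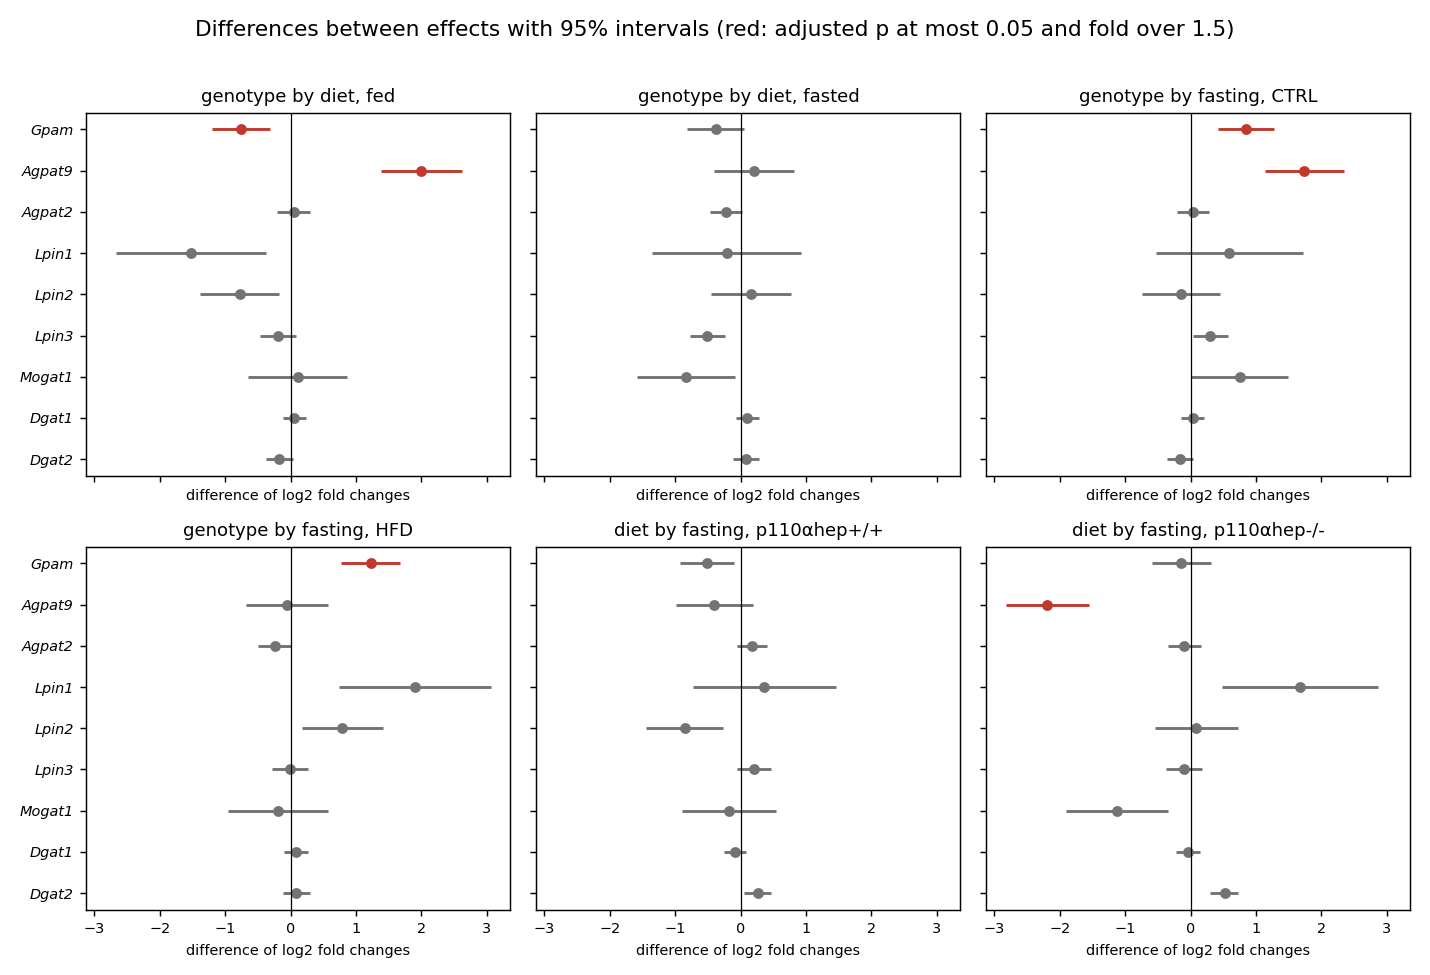
Difference between the log2 fold changes compared (x axis) for each gene (rows), with 95% intervals from the limma fit, in 6 panels, 1 for each interaction. Red marks the 6 called terms, which belong to *Agpat9* (2.0, 1.74 and -2.19) and *Gpam* (-0.76, 0.85 and 1.23), and *Lpin1* has the widest intervals.

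Other genes of the pathway were read from a list of 69, of which 61 passed the detection filter. They cover the supply of glycerol-3-phosphate, further acyltransferases and phosphatases, the phospholipid branches, acyl-CoA synthetases and regulators. Fasting raised 5 and lowered 8 of the 61 in p110αhep+/+ mice on CTRL diet, and raised 0 and lowered 6 on HFD. In p110αhep-/- mice it raised 7 and lowered 5 on CTRL diet, and raised 1 and lowered 6 on HFD. These are 21.3%, 9.84%, 19.7% and 11.5% of the list, beside 5.46%, 4.72%, 7.08% and 5.9% of all genes, and no test of the list was made. *Srebf1*, which encodes SREBP-1, fell in all 4 fasting comparisons, most in p110αhep+/+ mice on CTRL diet (-2.83 ± 0.2, 7.11-fold, adjusted p = 9.69e-15). *Insig1*, a sterol-sensing partner of the SREBP pathway, also fell in all 4 (-1.68 ± 0.16 in p110αhep-/- mice on CTRL diet), as did the acyl-CoA synthetase gene *Acsl3* (-1.31 ± 0.13 in p110αhep+/+ mice on HFD). *Gpd2*, the mitochondrial glycerol-3-phosphate dehydrogenase, fell in 3 of 4. *Gyk*, the glycerol kinase, *Ppargc1a*, a coactivator of fasting metabolism, and the choline kinase *Chkb* each rose in 2, and *Insig2* in 1.

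HFD changed 1 to 7 of the 61 genes per comparison, or 4.92%, 1.64%, 11.5% and 3.28% in fed and fasted p110αhep+/+ and fed and fasted p110αhep-/- mice, beside 3.71%, 2.82%, 2.34% and 1.89% of all genes. *Pparg*, which encodes PPARγ, rose on HFD in all 4 comparisons, and it fell with loss of p110α in all 4. On CTRL diet its fed arrays read 9.9 to 11.01 (median 10.83) in p110αhep+/+ and 8.12 to 8.88 (median 8.55) in p110αhep-/- mice. On HFD they read 11.17 to 11.64 (median 11.49) and 9.06 to 10.5 (median 9.77). Its genotype effect ran from -2.15 ± 0.18 in fed mice on CTRL diet (4.44-fold, adjusted p = 9.48e-12) to -1.47 ± 0.19 in fasted mice on HFD, and its HFD effect from 0.73 ± 0.18 in fed p110αhep+/+ mice to 1.33 ± 0.19 in fed p110αhep-/- mice. *Insig1*, *Ppap2c*, *Mogat2* and *Srebf1* were each lower and *Insig2* and *Gpat2* higher on HFD in at least 1 comparison of fed mice, and *Gpd1* was lower on HFD in fasted p110αhep-/- mice (-0.68 ± 0.12).

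Loss of p110α lowered 7 and raised 0 of the 61 genes in fed mice on CTRL diet. In fasted mice on CTRL diet it raised 3 and lowered 2, in fed mice on HFD it raised 3 and lowered 6, and in fasted mice on HFD it raised 2 and lowered 4, which are 11.5%, 8.2%, 14.8% and 9.84% of the list, beside 3.73%, 3.23%, 6.23% and 6.56% of all genes. *Mogat2*, a paralogue of *Mogat1*, was lower in p110αhep-/- livers in all 4, most in fed mice on HFD (-1.27 ± 0.17, adjusted p = 1.64e-07), where arrays read 6.04 to 6.28 (median 6.16) against 7.21 to 7.56 (median 7.47). *Gpd1*, the cytosolic glycerol-3-phosphate dehydrogenase, was lower in 3 of 4, most in fasted mice on HFD (-1.37 ± 0.11, adjusted p = 2.08e-12). *Mboat1* and *Insig2* were lower in 2 and 3 comparisons, and *Ppap2a*, *Acsl4* and *Etnk2* higher in 2, 2 and 1.

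**Figure D4:**
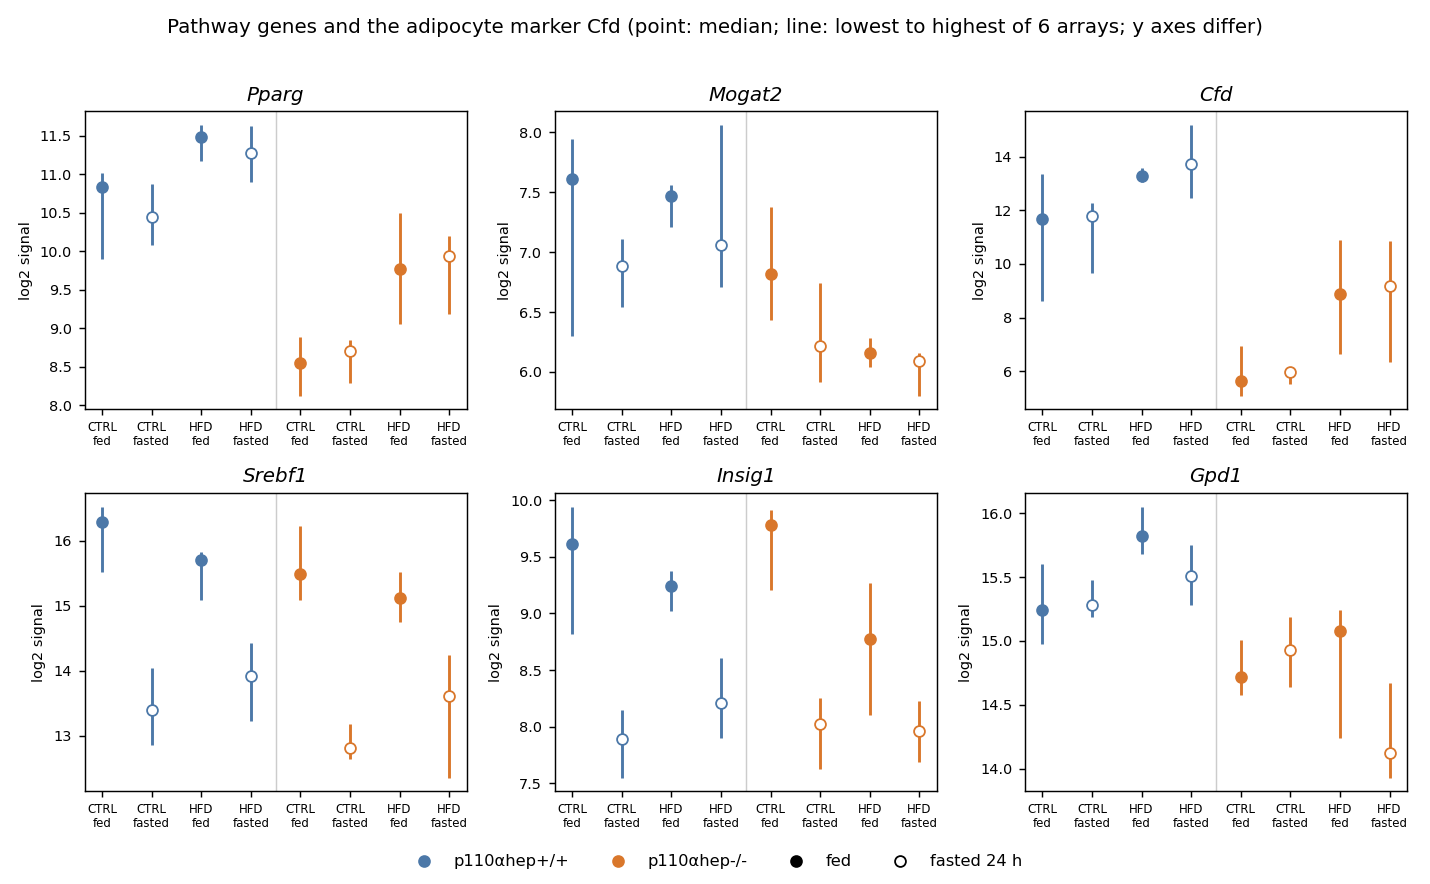
Log2 signal (y axis, a separate scale per panel) of 5 pathway genes and the adipocyte marker *Cfd* by group (x axis), with points at the median and lines from the lowest to the highest of 6 arrays, blue for p110αhep+/+ and orange for p110αhep-/-, filled for fed and open for fasted mice. *Pparg* and *Cfd* have higher medians on HFD and lower ones in p110αhep-/- livers, and *Srebf1* and *Insig1* were called lower after fasting in all 4 comparisons.

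Of the adipocyte markers, *Cfd* moved with the *Mogat1* comparisons. Among the 5 markers on the list, *Adipoq*, which defines adipocytes, was well above background on 6 of 48 arrays, *Plin1* on 21 and *Retn* on 25, whereas *Lep* was on 48 and *Cfd* on 44. *Cfd* was lower in p110αhep-/- livers in all 4 comparisons, from -5.58 ± 0.64 in fed mice on CTRL diet to -4.09 ± 0.64 in fed mice on HFD (log2), and higher on HFD by 1.76 to 3.24. Because its signal ran down to 5.08 and was not well above background on every array, the size of these differences is not exact. *Plin1*, *Retn* and *Lep* were called in none of the 4 genotype and 4 HFD comparisons by limma, although *Lep* passed the adjusted p at 0.55 ± 0.13 higher in fed p110αhep-/- mice on HFD and at 0.42 ± 0.14 higher on HFD in fed p110αhep-/- mice. Over all arrays *Cfd* ran from 5.08 to 15.18, *Plin1* from 5.24 to 6.1, *Retn* from 5.28 to 6.49 and *Lep* from 6.87 to 8.63, so that differences in the sum follow mainly *Cfd*. The summed level of the 4 markers kept ran from 9.32 to 13.4 (log2) in fed p110αhep+/+ and from 7.92 to 8.48 in fed p110αhep-/- mice on CTRL diet. It ran from 13.12 to 13.61 and from 8.55 to 11.11 in fed mice on HFD. The part of adipocyte RNA in the *Mogat1* and *Pparg* differences was not tested beyond these levels. The summed hepatocyte markers stayed within 20.18 to 20.36 on all arrays. Some markers of other cell types were also called between the genotypes. Of 4 stellate markers, *Col1a1* was lower in 3 of 4 comparisons, down to -2.33 in fasted mice on HFD. The summed stellate level had medians of 11.5 in p110αhep+/+ and 11.55 in p110αhep-/- livers of fed mice on CTRL diet. In fasted mice on HFD these medians were 11.81 and 11.58. Of 4 cholangiocyte markers, *Krt19* was lower in 3 of 4 comparisons, down to -0.89 in fed mice on HFD. The summed cholangiocyte medians there were 8.71 in p110αhep+/+ and 8.41 in p110αhep-/- livers. Of 4 endothelial markers, *Lyve1* was lower in fed mice (-1.13 on CTRL diet and -0.82 on HFD) and *Clec4g* higher in fasted mice on HFD (0.68), while the summed endothelial level ran from 13.85 to 14.1 in p110αhep-/- and from 13.44 to 13.91 in p110αhep+/+ livers of fed mice on CTRL diet, and from 13.91 to 14.08 and from 13.21 to 14.02 in fasted mice on HFD. The pancreatic *Cela1* was lower in fasted mice on CTRL diet (-0.89), and *Prss2* and *Pnlip* of pancreas were well above background on 0 and 1 arrays. Their part in the members' differences was not tested. In bulk tissue, fewer cells of a type and less RNA per cell cannot be told apart.

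For the members other than *Dgat2*, the 3 genes with the most alike pattern over the 48 arrays were found by Pearson correlation, as a description in which groups and normalization are shared. *Mogat1* lay nearest to *Clstn3* (0.96), *4931406C07Rik* (0.95) and *Themis* (0.95). *Lpin2* lay nearest to *Dnmbp* (0.93), *Hbp1* (0.91) and *Ccng2* (0.9), and *Agpat9* to *Vnn1* (0.91), *Tdrp* (0.89) and *Efna5* (0.87). *Agpat2* was most like *Pygl*, *Tjp3* and *Thrsp* (0.91 each), and *Gpam* most like *Tbc1d31*, *Ran* and *Gngt1* (0.9 each). *Lpin1* was most like *Hif3a* (0.84), *Fkbp5* (0.78) and *Arhgef26* (0.78). The nearest genes of *Lpin3* were *Pex3*, *Pex16* and *Trub2* (0.78 each), and those of *Dgat1* were *Elk4* (0.78), *Park2* (0.77) and *Morn1* (0.77).

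The members were also read from 12 further probes above the detection filter, for 6 of the 9 genes. Of 216 comparisons with the probe used, 202 gave the same call, a count that includes comparisons called on neither probe. The probe used alone was called in 9 and the other probe alone in 5, and in 0 were both called in opposite directions. The probes used lie at chr19:55142203-55142262 (*Gpam*), chr5:101328054-101328113 (*Agpat9*), chr2:26448610-26448669 (*Agpat2*), chr12:16543023-16543082 (*Lpin1*), chr17:71598998-71599057 (*Lpin2*), chr2:160731469-160731528 (*Lpin3*), chr1:78534646-78534705 (*Mogat1*), chr15:76333128-76333274 (*Dgat1*) and chr7:106302215-106302274 (*Dgat2*) of the mm9 build that the array annotation uses.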

How the data were processed

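Liver RNA of 48 samples (200 ng each) was labelled and hybridized to Agilent one-colour arrays, and the slides were scanned and extracted with Feature Extraction 10.10.1.1 by the authors. The deposited scanner files hold spot intensity on a linear scale, and the deposited value table holds the authors' normalized log2 values. Neither holds the authors' own comparisons. Here the median signal was used without background subtraction. Control spots and outlier spots were left out and spots averaged by probe. Of 56605 probes, 30794 were kept because they were well above background on at least 5 of 6 arrays of 1 group or more. The wash batch was removed with the groups protected, and the log2 values were quantile normalized. On each array these values correlated at 1 (rounded) with the deposited log2 values, whose column medians were 7.69 and whose filter is not given in the sources used here. All 48 arrays entered 1 limma fit with array weights (limma 3.58.1, statmod 1.5.0, R 4.3.3), with Benjamini–Hochberg adjustment over all kept probes. A gene was read from its brightest kept probe. The fit was tested on simulated data. The members and gene lists were chosen with earlier results of these data known. Besides the members, the text names the pathway genes with the largest called changes, 8 for each of fasting, HFD and genotype, and the genes most correlated with each member (for *Dgat2* these are not reported here). Alternatives changed the signal column, background correction, scaling, filter, batch terms, weights, fit, probe rule and threshold, took the deposited log2 values, and left out 1 array. Values within each wash batch were added after the data had been seen. The precision is limited by the number of arrays.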

Additional observations from a re-analysis of the deposited data

Results flagged for a closer look

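Arrays that stood far from the rest of their group were looked for in 72 pairs of gene and group, by the gap to the nearest array over the range of the group (Dixon's test, which chance passes in about 5 of 100 groups). There were 4 such pairs. *Mogat1* in fed p110αhep+/+ mice on CTRL diet had a ratio of 0.656, with replicate 2 at 8.02 and the others at 9.26 to 9.91. *Lpin2* in the same group had a ratio of 0.661, with replicate 2 at 14.04 and the others at 12.36 to 12.93. *Lpin2* in fasted p110αhep-/- mice on HFD had a ratio of 0.648, with replicate 5 at 14.76 and the others at 14.22 to 14.41. *Dgat2* in fed p110αhep-/- mice on CTRL diet had a ratio of 0.703, with replicate 1 at 16.78 and the others at 16.41 to 16.52.

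Of 54 interaction terms, 6 were called, each a difference between effects in 2 genotypes or on 2 diets. For *Agpat9* they were 2 for genotype by diet in fed mice, 1.74 for genotype by fasting on CTRL diet and -2.19 for diet by fasting in p110αhep-/- mice. For *Gpam* they were -0.76 for genotype by diet in fed mice, 0.85 for genotype by fasting on CTRL diet and 1.23 for genotype by fasting on HFD.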

How the results depend on the processing

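The 33 called effects were recomputed under 14 alternatives that keep both thresholds. Of these, 1 used the authors' deposited log2 values, which correlated at 1 (rounded) with those used here, so it could hardly differ. Leaving out 1 array, another of them, bears mainly on the effects that use its group. Of the 462 values, 439 kept direction and call, 23 kept direction without the call and 0 changed direction. Of the 33 effects, 26 kept their call throughout these 14, and 8 of 129 uncalled effects were called under at least 1. Dropping the fold threshold, a further alternative, added 25 of the 129. Effects that lost the call under an alternative were the HFD effect on *Gpam* (0.51 to 0.61) and *Lpin2* (0.56 to 0.62) in fed p110αhep+/+ mice, the *Gpam* terms for genotype by diet in fed mice (-0.77 to -0.66) and genotype by fasting on CTRL diet (0.78), the fasting effect on *Agpat2* in p110αhep-/- mice on HFD (-0.57 to -0.55), the genotype effect on *Lpin1* in fed mice on HFD (-1.23 and -0.98) and the fasting effect on *Mogat1* in p110αhep-/- mice on CTRL diet (0.45). The cause was not tested.

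With no fold threshold, the fasting comparisons had 6 members called in p110αhep+/+ mice on CTRL diet, 4 on HFD and 7 in p110αhep-/- mice on CTRL diet, where 32.6%, 28.6% and 35.5% of all genes passed. HFD then gave 3 in fasted p110αhep+/+ and 1 in fasted p110αhep-/- mice (16% and 10.8% of all genes). Genotype gave 4 in fed and 4 in fasted mice on CTRL diet, 6 in fed and 5 in fasted mice on HFD (21.7%, 24.8%, 33% and 36.9% of all genes). Genotype by diet in fasted mice gave 1 (5.09%) and diet by fasting in p110αhep-/- mice 2 (8%). The fasting comparison in p110αhep+/+ mice on HFD had 3 members with the processed signal, and 2 with normexp and 2 with median scaling. Genotype by diet in fed mice had 1 with the processed signal, without the filter, without the wash correction, with wash batch, slide or replicate number as a block, and with only the groups compared. Genotype by fasting had 1 on CTRL diet without array weights. On HFD it had 2 with normexp, median scaling, probes above background on all arrays, a slide block or a replicate block, and without p110αhep-/- HFD fed replicate 3, and 3 with the median over probes. Diet by fasting in p110αhep-/- mice had 2 with the processed signal, the replicate block, no weights, or without that replicate. Apart from the setting with no fold threshold, the share of all genes called under each alternative is not given here. Those counts therefore cannot be set against a background.

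The replicate numbers did not pair the samples: deviations of same-numbered arrays had a median correlation of 0.014, 128 of 168 such pairs were at or under 0.1, and 10 of 48 arrays correlated best with their own number. With the replicate block the HFD comparison in fed p110αhep+/+ mice had 3 members called in place of 4, and the 3 interactions above changed as given. The share of all genes called with that block is not given here. Within the wash batches, of 3 arrays a group each, all 33 called effects kept their direction in both. Dim probes limit the second probe of *Mogat1*, which was near background in p110αhep-/- livers.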
